A study of Mus musculus with 8 samples.

Results

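Plasma cells are the antibody-secreting end of the B cell lineage, and 8 genes that regulate or mark them were followed through RNA-seq of bone marrow B cells from mice with and without ovaries. The genes were chosen by name, as rows of the deposited count table whose Ensembl identifier maps to Prdm1, Xbp1, Irf4, Pou2af1, Mzb1, Fkbp11, Sdc1 or Jchain. All 8 were found among the 54532 genes of the table, and all 8 passed the filter on low counts that left 15305 genes. The 3 Sham libraries came from mice that received sham surgery, and the 3 OVX libraries came from mice whose ovaries were removed, a surgical model of menopause. In both groups B cells were enriched from bone marrow by magnetic sorting, so the plasma cells present are those that this sort retained. The strain, age and time after surgery of these 6 RNA samples are not given in the sources used here, and nothing says whether a library is 1 mouse or a pool, so p-values measure only the spread between libraries.

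A B cell becomes a plasma cell when IRF4 and Blimp-1, the product of Prdm1, shut down the B cell programme set by PAX5 and turn on secretion. XBP1, made active by splicing of its mRNA when the endoplasmic reticulum is under load, then expands the secretory apparatus, and the J chain joins IgA or IgM units into polymers. Several of these genes have a second life in bone marrow. IRF4 acts in pre-B cells during light chain rearrangement, the octamer coactivator encoded by Pou2af1 works throughout the lineage, and syndecan-1, the CD138 antigen encoded by Sdc1, is also carried by B cell precursors of the mouse.

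The promoters of 4 members are shown because the results turn on these genes. Jchain and Prdm1 had the lowest log2 fold changes. Irf4 and Pou2af1 were the pair of members whose log2 levels, each taken from its own mean, differed least over the libraries. Each line gives the 250 bases before a transcription start listed by RefSeq (build GRCm38.p6, the build of all coordinates given here), in the direction of transcription, with the core ACGTG or GCGTG of the hypoxia response element in capitals on either strand.
Jchain (- strand, chr5:88527898-88528147): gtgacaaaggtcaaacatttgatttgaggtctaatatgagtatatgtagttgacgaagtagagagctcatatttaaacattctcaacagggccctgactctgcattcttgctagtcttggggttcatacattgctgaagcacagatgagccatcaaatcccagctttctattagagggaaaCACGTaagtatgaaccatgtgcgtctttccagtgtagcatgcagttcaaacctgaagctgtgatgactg
Prdm1 (- strand, chr10:44458749-44458998): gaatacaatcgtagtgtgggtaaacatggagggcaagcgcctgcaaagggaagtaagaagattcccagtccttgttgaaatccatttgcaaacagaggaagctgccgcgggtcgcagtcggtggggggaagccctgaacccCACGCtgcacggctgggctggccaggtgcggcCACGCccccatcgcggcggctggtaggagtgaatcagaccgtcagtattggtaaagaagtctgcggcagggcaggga
Irf4 (+ strand, chr13:30748983-30749232): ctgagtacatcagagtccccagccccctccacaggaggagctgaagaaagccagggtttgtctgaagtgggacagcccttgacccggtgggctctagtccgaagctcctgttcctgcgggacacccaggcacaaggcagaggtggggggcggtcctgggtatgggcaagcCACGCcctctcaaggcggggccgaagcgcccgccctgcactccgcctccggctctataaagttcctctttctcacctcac
Pou2af1 (+ strand, chr9:51213440-51213689): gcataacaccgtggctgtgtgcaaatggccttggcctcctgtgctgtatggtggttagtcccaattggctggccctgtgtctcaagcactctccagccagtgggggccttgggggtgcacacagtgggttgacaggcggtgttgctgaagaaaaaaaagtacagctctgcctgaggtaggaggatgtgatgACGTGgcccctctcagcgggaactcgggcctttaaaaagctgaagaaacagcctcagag

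The core stood 69 bases before the start of Jchain, 109 and 77 bases before that of Prdm1, 80 before that of Irf4 and 59 before that of Pou2af1. The ACGTG form overlaps the core that XBP1 and E-box factors recognise. Promoters of 7 of the 8 genes were searched, in 8 windows, since Fkbp11 has a second listed start. The window of Prdm1 lies inside the locus of that gene, chr10:44437174-44528558. The bases before the upstream end of that locus were not searched. At least 1 core was held by 6 of the 8 windows, which belong to 6 of the 7 genes. For Fkbp11 this was the window of the second start only, and the window of Xbp1 held no core. Over all 32841 promoter windows of the same length, 38.6% held the core. No window of the 7 genes held the octamer ATTTGCAT, the interferon regulatory element (GAAA, any 2 bases and GAAA again) or the Blimp-1 core AGNGAAAG, which were in 1.6%, 2.98% and 7.3% of all promoters. Both strands were searched for each motif. These are matches of letters, and binding at these windows was not analysed here.

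Sham 2 and Sham 3 stood apart from the other 4 libraries in antibody transcripts, and Sham 1 lay with the OVX libraries there. The summed level of the IgG and IgA constant genes was 2532 CPM in Sham 2 and 2081 in Sham 3, against 253.8 to 1023 in the other 4, where CPM are reads scaled to a common library size with TMM factors. Over all genes tested, Sham 1 was also nearer to the OVX libraries than to the other Sham libraries. The chi-square per degree of freedom between the counts of a pair of libraries was 11.9, 9.29 and 13 for Sham 1 against OVX 1, 2 and 3. It was 58.3 and 34.5 for Sham 1 against Sham 2 and Sham 3. Sham 2 and Sham 3 were not a close pair by this measure, at 42.2, and Sham 2 against OVX 1 gave 42.3. Sham 3 was nearer to OVX 1 (18.6) than to Sham 2, but not to OVX 2 (50.2) or OVX 3 (54.7). Values without single libraries are therefore given beside the members and several of the lists.

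No plasma cell gene was called different between OVX and Sham. A call needed an adjusted p-value under 0.05 and a change of at least 1.6-fold in edgeR's quasi-likelihood test, which 0% of the 15305 genes met, and the same count of 0 was found with DESeq2 and limma-voom. At an unadjusted p-value under 0.05, 2.28% of all genes were lower and 1.47% were higher in OVX, 349 against 225 genes. This split was 432 against 67 with scaling on general B cell genes and 551 against 204 with DESeq2. The DESeq2 split is over 27412 genes, since that run had no filter on low counts. Without that filter edgeR gave 905 against 364, over 27416 genes. Of the 8 members only Prdm1 was below that unadjusted level, as 1 of the lower genes, and it was joined by Jchain with DESeq2, while limma-voom placed neither there. That count of 1 member was 4 without Sham 1 (Jchain, Prdm1, Sdc1 and Xbp1) and 0 without Sham 2, Sham 3, OVX 2 or OVX 3. The OVX and Sham libraries overlapped for all 8 members, where 4.12% of all genes had every OVX library below every Sham library and 4.33% had every one above. By sign, 4 members were lower (Jchain, Prdm1, Fkbp11 and Xbp1) and 4 higher in OVX (Sdc1, Irf4, Pou2af1 and Mzb1), with a median log2 fold change of -0.07 against -0.01 over all genes tested.

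**Figure D1:**
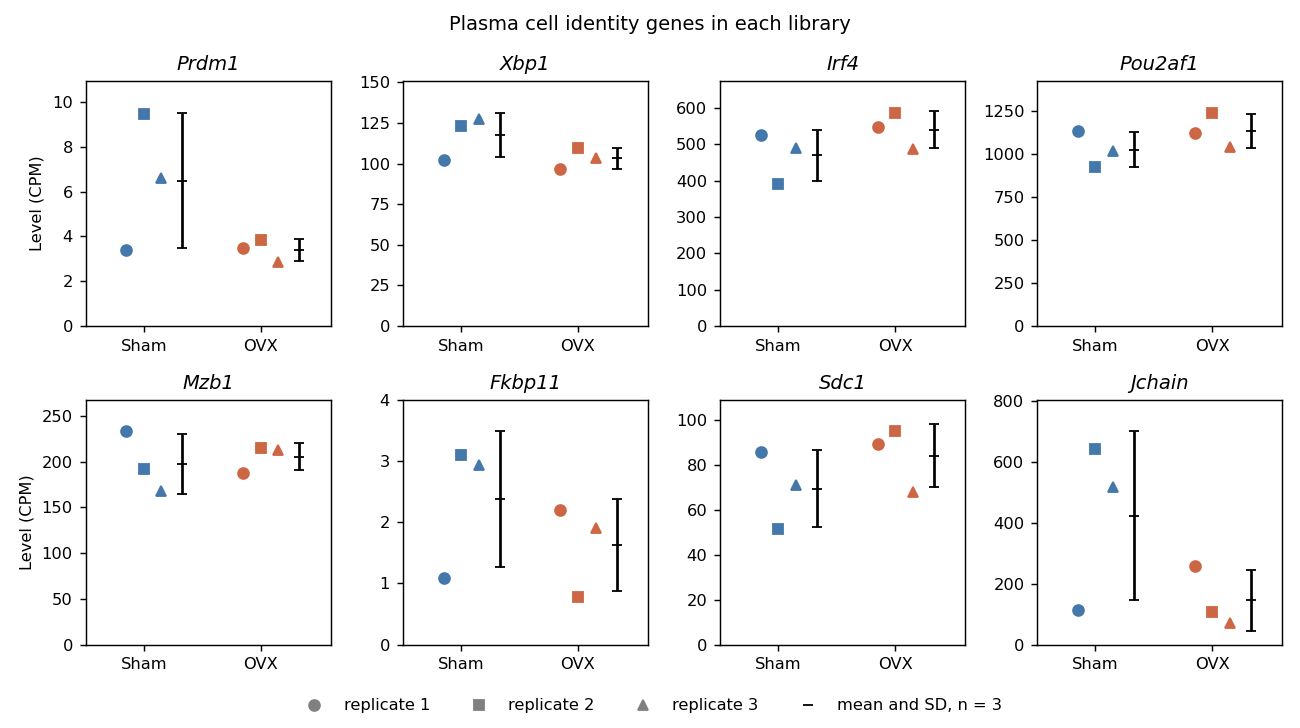
Level of each of the 8 genes in CPM on linear axes that start at 0, with 1 point per library shaped by replicate number and a bar for the mean and SD of 3 libraries. For Jchain, Prdm1, Fkbp11 and Xbp1 the points of Sham 2 and Sham 3 lie above the others, and in every panel OVX and Sham overlap.

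Jchain (ENSMUSG00000067149, chr5:88519809-88527897), which encodes the joining chain, varied most of the 8. It stood at 111.6, 639.9 and 515.3 CPM in Sham 1, 2 and 3 and at 256.5, 105.4 and 71.2 CPM in OVX 1, 2 and 3. Sham 2 and Sham 3 were the highest libraries, OVX 1 was intermediate, and Sham 1 lay with the lower OVX libraries, so the groups overlapped. The lowest and highest library differed 8.99-fold. Sham libraries averaged 422.3 ± 276.2 CPM and OVX libraries 144.4 ± 98.6 (SD, n = 3 libraries each). This is a log2 fold change of -1.55 (SE 0.68, 95% interval -3.15 to 0.05, edgeR adjusted p = 0.811). Exact permutation of the log2 levels, two-sided, gave p = 0.2, where 3 libraries against 3 cannot go below 0.1. The log2 fold change was -1.12 without Sham 2 and -1.39 without Sham 3, and it was -2.01 without Sham 1 and -2.26 without OVX 1. Lower levels in bulk RNA can come from fewer plasma cells or from less RNA per cell, which cannot be told apart here.

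Prdm1 (ENSMUSG00000038151, chr10:44437174-44528558), the gene of Blimp-1, was counted with few reads, 81, 269 and 164 in Sham 1, 2 and 3 and 86, 109 and 95 in OVX 1, 2 and 3. Its level was 3.42, 9.47 and 6.59 CPM in the Sham libraries and 3.5, 3.84 and 2.87 CPM in the OVX libraries. As for Jchain, Sham 2 and Sham 3 were highest and Sham 1 lay among the OVX libraries. The log2 fold change was -0.93 (SE 0.36, 95% interval -1.78 to -0.08), with an unadjusted value of 0.0354 that became an edgeR adjusted p = 0.811. Without Sham 2, the library with the highest count, it was -0.56. Exact permutation, two-sided, gave p = 0.3 for Prdm1, and the same p = 0.3 for Xbp1, Irf4, Pou2af1 and Sdc1, 0.5 for Fkbp11 and 0.7 for Mzb1.

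Fkbp11 (ENSMUSG00000003355, chr15:98724368-98728198) encodes a peptidyl-prolyl isomerase of the endoplasmic reticulum and had the fewest reads of the members, between 22 and 88 per library. It stood at 1.1, 3.1 and 2.93 CPM in Sham 1, 2 and 3 and at 2.2, 0.776 and 1.91 CPM in OVX 1, 2 and 3. Again Sham 2 and Sham 3 were highest, and here OVX 2 was lowest. The log2 fold change was -0.55 (SE 0.51, edgeR adjusted p = 0.815), and it ran from -0.89 without Sham 1 to -0.22 without OVX 2. The interval, from -1.74 to 0.64, held 0.

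Xbp1 (ENSMUSG00000020484, chr11:5520641-5525993) had 102.3, 123.3 and 127.4 CPM in Sham 1, 2 and 3 and 96.7, 109.7 and 103.2 CPM in OVX 1, 2 and 3. Sham 3 and Sham 2 were the highest libraries, as for Jchain in the other order, but OVX 1, the next highest for Jchain, was the lowest here. Sham 1 lay between OVX 1 and OVX 3, so the groups overlapped. The log2 fold change was -0.19 (SE 0.10, 95% interval -0.42 to 0.04, edgeR adjusted p = 0.811). It ran from -0.28 without Sham 1 to -0.14 without Sham 3. Counts per gene do not separate the spliced from the unspliced mRNA, so the active form of XBP1 was not measured.

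The other 4 members had positive log2 fold changes. Irf4 (ENSMUSG00000021356, chr13:30749233-30766981) stood at 526.9, 391.5 and 491.0 CPM in Sham 1, 2 and 3 and at 548.6, 586.4 and 487.0 CPM in OVX 1, 2 and 3. Here Sham 2, the highest library for Jchain, was the lowest. The log2 fold change was 0.20 (SE 0.13, 95% interval -0.10 to 0.50, edgeR adjusted p = 0.811), which was 0.08 without Sham 2 and 0.14 without OVX 2. Pou2af1 (ENSMUSG00000032053, chr9:51213690-51240079) was likewise lowest in Sham 2 and highest in OVX 2, with 1133, 927.1 and 1020 CPM in the Sham libraries and 1126, 1240 and 1043 CPM in the OVX libraries. Its log2 fold change was 0.15 (SE 0.11, 95% interval -0.10 to 0.39, edgeR adjusted p = 0.811), and it was 0.075 without Sham 2 and 0.08 without OVX 2.

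Sdc1 (ENSMUSG00000020592, chr12:8771396-8793716), the usual surface marker of plasma cells, was ordered differently from Jchain. It had 85.6, 51.3 and 71.2 CPM in Sham 1, 2 and 3 and 89.5, 94.9 and 68.1 CPM in OVX 1, 2 and 3, so that the library with the most Jchain had the least Sdc1. Its log2 fold change of 0.28 (SE 0.20, 95% interval -0.19 to 0.75, edgeR adjusted p = 0.811) was 0.10 without Sham 2 and 0.46 without Sham 1. Mzb1 (ENSMUSG00000024353), which encodes a cochaperone that helps assemble antibodies in the endoplasmic reticulum, stood at 233.0, 192.5 and 167.4 CPM in the Sham libraries and 188.1, 215.2 and 212.8 CPM in the OVX libraries. No library stood apart for Mzb1. Its log2 fold change of 0.06 (SE 0.13, 95% interval -0.24 to 0.35, edgeR adjusted p = 0.912) was -0.06 without Sham 3 and -0.003 with scaling on general B cell genes.

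**Figure D2:**
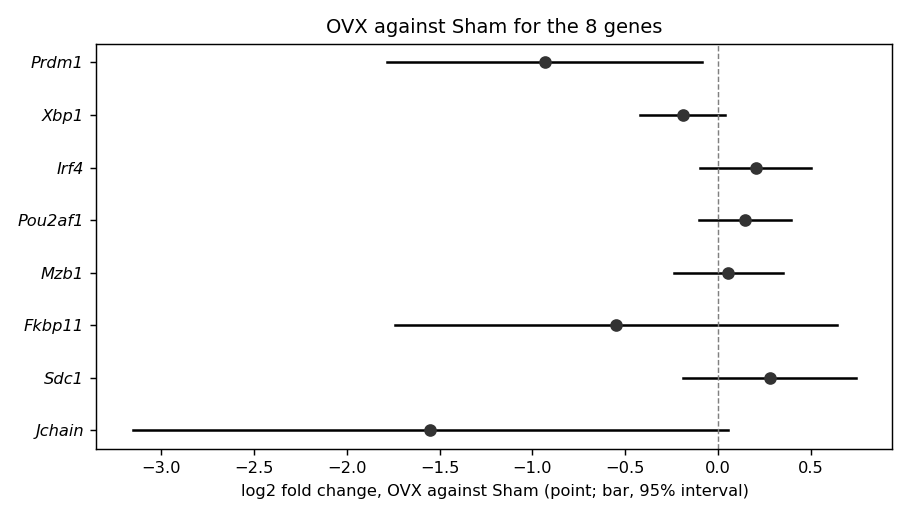
Log2 fold change of OVX against Sham for each gene (point) with its 95% interval from edgeR's quasi-likelihood fit (bar), n = 3 libraries per group. The interval of Prdm1, from -1.78 to -0.08, leaves out 0 before adjustment, that of Jchain runs from -3.15 to 0.05, and the 4 genes with positive values have intervals that reach below 0.

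**Figure D3:**
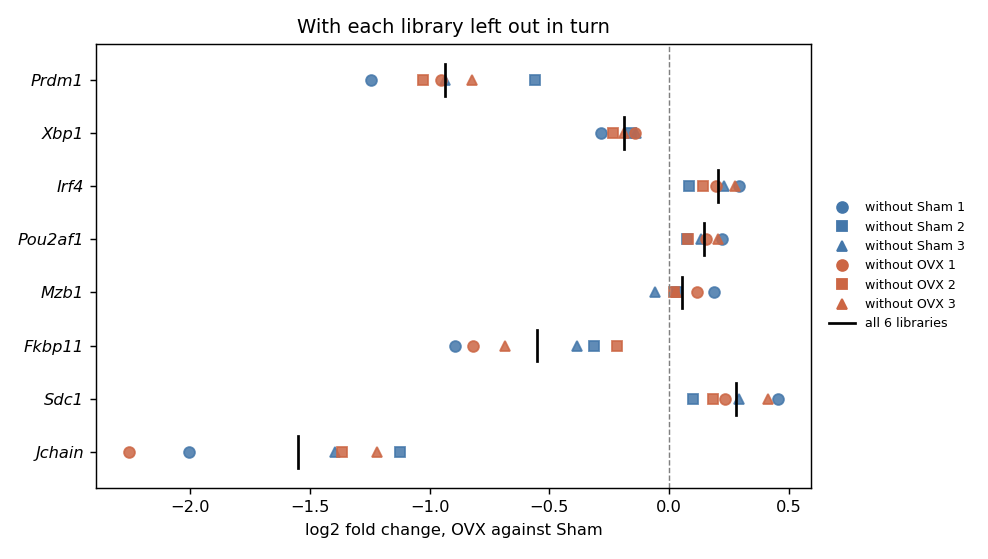
Log2 fold change of OVX against Sham for each gene with 1 library left out (points, by library) and with all 6 (black line). Jchain ranges from -2.26 to -1.12 and Prdm1 from -1.24 to -0.56, and among the 8 genes the sign changes for Mzb1 alone.

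The 8 genes differed in their spread and in their order over the 6 libraries. The spread over the 6 libraries, as the standard deviation of log2 CPM, was 1.31 for Jchain, 0.79 for Fkbp11 and 0.66 for Prdm1, which lay at percentiles 98.7, 92.0 and 88.1 of all genes tested. Fkbp11 and Prdm1 had between 22 and 269 reads per library. Sdc1 followed with 0.33, and Irf4, Mzb1, Xbp1 and Pou2af1 lay between 0.14 and 0.20, where the median gene had 0.19. After each gene was centred on its own mean, Irf4 and Pou2af1 differed by a root mean square of 0.067 on the log2 scale. This was the smallest of the 28 pairs of members, and Sdc1 and Jchain differed most, by 1.39. Such a difference is small where both genes have little spread and large where 1 has much, so it shows no special likeness. Other genes lay nearer to Irf4 (Cmc2, 0.025) and to Pou2af1 (Ivns1abp, 0.014) than these 2 to each other. The count ratio of Irf4 to Pou2af1 stayed between 0.422 and 0.487 over the 6 libraries, and it needs no scaling between libraries. The ratio of Irf4 to Prdm1 ran from 41.4 in Sham 2 and 74.5 in Sham 3 to between 153 and 170 in the other 4 libraries. Averaged by group that ratio was 90 ± 58 for Sham against 160 ± 8.82 for OVX (SD, n = 3 libraries each, exact permutation, two-sided, p = 0.2).

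**Figure D4:**
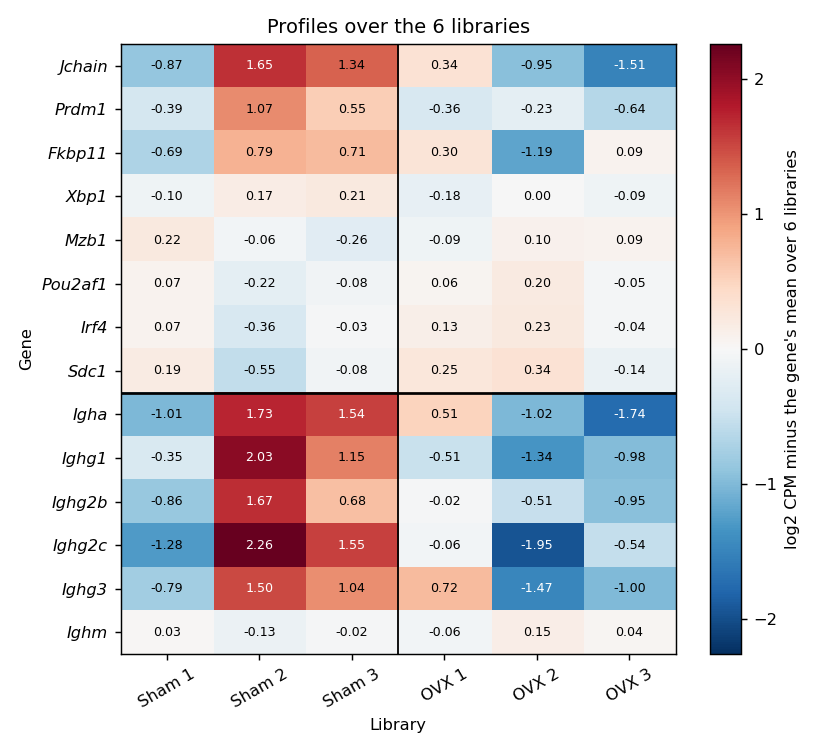
Log2 CPM of the 8 plasma cell genes (above the line) and 6 antibody heavy chain constant genes (below it) in each library, after subtracting the gene's mean over the 6 libraries. Jchain reads 1.65 and 1.34 in Sham 2 and Sham 3, the IgA and IgG genes are also highest there, and Irf4 and Sdc1 read -0.36 and -0.55 in Sham 2.

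Jchain had its closest likeness in IgA. Among all genes tested, the nearest to Jchain by root mean square difference of centred log2 CPM over the 6 libraries was Igha, the IgA heavy chain constant gene, at 0.16. Igha stood at 315.3, 2111 and 1852 CPM in Sham 1, 2 and 3 and at 907.3, 313.5 and 190.2 CPM in OVX 1, 2 and 3. The count ratio of Igha to Jchain was 2.82, 3.3 and 3.59 in the Sham libraries and 3.54, 2.98 and 2.67 in the OVX libraries. The ratio thus varied 1.35-fold while Jchain itself varied 8.99-fold, with means of 3.24 ± 0.39 for Sham and 3.06 ± 0.44 for OVX (SD, n = 3 libraries each, exact permutation, two-sided, p = 0.7). The ratio of Ighm, the IgM constant gene, to Jchain ran from 9.17 in Sham 2 to 92.7 in OVX 3. The next nearest genes to Jchain were Cd28, a costimulatory receptor of T cells that plasma cells also carry (15 to 99 reads per library, difference 0.25), and 2010016I18Rik (difference 0.30).

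**Figure D5:**
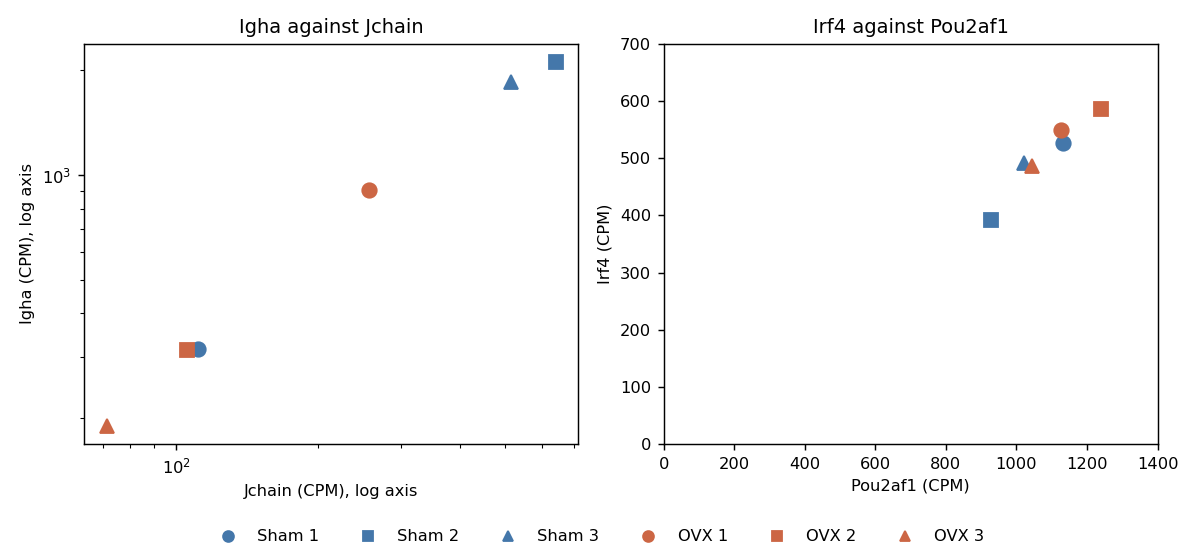
Igha against Jchain in CPM on log axes (left) and Irf4 against Pou2af1 in CPM on linear axes from 0 (right), with 1 point per library coloured by group and shaped by replicate. Libraries with more Jchain have more Igha, from 190.2 CPM in OVX 3 to 2111 CPM in Sham 2, and Irf4 and Pou2af1 stay within 391.5 to 586.4 and 927.1 to 1240 CPM.

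The other members had other neighbours by the same measure, given as a description of 6 libraries. For Prdm1 these were Gm614, the chemokine receptor gene Cxcr3 and the kappa variable segment Igkv4-58, at 0.14 to 0.15. For Irf4 they were Cmc2, the tubulin gene Tubb5 and Tagap1, at 0.025 to 0.032. Those of Pou2af1 were Ivns1abp, Dok3 and Ube2e1, at 0.014 to 0.023, those of Xbp1 were Sp140, Samd8 and Dynlt1c, at 0.034 to 0.047, and those of Mzb1 were Stau2, Nars2 and Lancl1, at 0.024 to 0.035. Sdc1 was nearest to Arvcf, Zfpm1 and Gm34095, at 0.039 to 0.047. Fkbp11 was nearest to Rtn4rl1, Gm37266 and Gnb5, at 0.15 to 0.18, of which the last 2 had at most 22 reads in a library. A gene with little spread differs little from any other flat gene, so these distances are not compared between members.

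Further plasma cell genes were read from a list of 16, of which 15 were tested, 10 of them lower and 5 higher in OVX, with no call. Their median log2 fold change was -0.17, and -0.06 without Sham 3. Over all genes tested 2.28% were lower at an unadjusted p-value under 0.05, and of the 15 genes 3 were, with none higher. These 3 are Tnfrsf17, the gene of the survival receptor BCMA, Ccr10, a homing receptor of IgA plasma cells, and Cd28. Tnfrsf17 is named here after its values were seen. Ccr10 had the lowest log2 fold change of the list, -1.96 (SE 0.81), with a mean of 0.25 ± 0.24 CPM for OVX against 0.95 ± 0.61 for Sham (SD, n = 3 libraries each) and 35 reads at most in a library. Tnfrsf17 stood at 0.422, 1.13 and 0.603 CPM in Sham 1, 2 and 3 and at 0.325, 0.388 and 0.151 CPM in OVX 1, 2 and 3, the 1 gene of the list with no overlap between groups, from 5 to 32 reads. Over all genes tested, 4.12% had every OVX library below every Sham library. The highest log2 fold change of the list was 0.23 (SE 0.12) for Trp53inp1. The 2 highest libraries were Sham 2 and Sham 3 for 8 of these 15 genes and for 4 of the 8 members, against 15.2% of all genes, a pattern chosen after the values were seen.

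Genes of the secretory apparatus and the unfolded protein response, part of which XBP1 drives, lay close to 0 in log2 fold change. Of 16 genes, 8 had higher and 8 had lower values in OVX. Their median log2 fold change was 0.00, and none was below an unadjusted p-value of 0.05. The range was from -0.09 for Pdia4, a protein disulphide isomerase, to 0.35 for Herpud1, a gene of degradation at the endoplasmic reticulum. Of the 16, 1 had every OVX library below every Sham library, against 4.12% of all genes tested. Among 12 genes of B cell identity that Blimp-1 or plasma cell differentiation silences, 6 were higher and 6 lower, with a median of 0.00. In this list Ebf1 (0.35, SE 0.12) and Bach2 (0.35, SE 0.14), which are regulators of the B cell state, were the 2 genes below an unadjusted p-value of 0.05 and the 2 with every OVX library above every Sham library. Over all genes tested 1.47% were higher at that unadjusted level, and 4.33% had every OVX library above every Sham library. Bach2 is named after its values were seen. The lowest of the list was Ciita, the master regulator of MHC class II, at -0.49 (SE 0.33).

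The IgG and IgA constant genes were highest in the same libraries as Jchain. All 5 IgG and IgA genes were lower in OVX, with log2 fold changes of -2.15 for Ighg1, -2.10 for Ighg2c, -1.60 for Igha, -1.28 for Ighg2b and -1.13 for Ighg3, and for all 5 the highest libraries were Sham 2 and Sham 3. Ighg1 alone had every OVX library below every Sham library, at 17.0, 9.56 and 12.2 CPM in OVX 1, 2 and 3 against 19.0, 99.0 and 53.6 in Sham 1, 2 and 3 (exact permutation, two-sided, p = 0.1, edgeR adjusted p = 0.811). The log2 fold changes of Ighm, at 0.08, Ighd, at -0.31, Igkc, at -0.29, and Iglc1, Iglc2 and Iglc3, at -0.25, -0.23 and 0.04, stayed nearer to 0. Igkc was also highest in Sham 2 and Sham 3, at 3098 and 2584 CPM, against 1748 CPM in Sham 1 and 2082, 2103 and 1888 CPM in OVX 1, 2 and 3. Ighd stood at 1011 CPM in Sham 2 and at most 545.9 CPM elsewhere, and 8 of the 11 constant genes tested were highest in Sham 2. Of the 11 constant genes tested none was called. Their median log2 fold change was -0.31, and it ran from -0.53 without Sham 1 to -0.23 without Sham 2. Ighg1 and Ighg2c were below an unadjusted p-value of 0.05, where 2.28% of all genes tested were lower, and 4.12% of all genes had no overlap with OVX below Sham. Reads of similar constant regions could have been split in counting, so the values of these constant genes are uncertain.

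The libraries were B cells by their markers, with all 12 general B cell genes counted in every library and a summed level of 9607 to 11110 CPM. Log2 fold changes were 0.06 for Cd79a, 0.16 for Cd79b, 0.05 for Ms4a1, 0.02 for Pax5, 0.35 for Ebf1, -0.03 for Blk, -0.23 for Cd22, 0.19 for Blnk, 0.00 for Cd37, 0.20 for Fcrla and -0.02 for Ralgps2. Cd22, Ralgps2 and Cd37 were highest in Sham 2, the library with the most Jchain, and Cd22 stood at 696.6 CPM there against 394.5 to 470.5 in the others. Pax5, Ebf1, Blnk and Fcrla were lowest in that library, with Pax5 between 1194 and 1328 CPM over all 6. Library totals were between 23838775 and 33136701 reads.

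Transcripts of other cells also differed between the libraries. The summed level of 12 T and NK cell genes was 26.1, 46.7 and 61.0 CPM in Sham 1, 2 and 3 and 30.03, 17.2 and 40.8 CPM in OVX 1, 2 and 3. Cd4 alone gave 13.3, 22.6 and 22.1 CPM of this sum in Sham 1, 2 and 3 and 11.1, 9.7 and 32.7 CPM in OVX 1, 2 and 3. OVX 3 was the highest library for Cd4 only, and it was the lowest for 3 of the 12 genes. By gene, 11 of the 12 were lower in OVX (from -1.67 for Cd8a to 0.13 for Klrb1c) and 2 of them were below an unadjusted p-value of 0.05, where 2.28% of all genes tested were lower. For 8 of the 12 the highest libraries were Sham 2 and Sham 3, and 1 of the 12 had 0 reads in 1 library. The median log2 fold change of these 12 was -1.35, and it ran from -2.20 without OVX 1 to -0.90 without OVX 3. T cells can transcribe Prdm1 and Cd28. Of 10 genes of plasmacytoid dendritic cells 8 were lower in OVX, from -2.26 for Klk1 to 0.10 for Zeb2. For 7 of the 10 Sham 2 and Sham 3 were the highest libraries. Their median log2 fold change over all 10 was -0.54, and it ran from -0.90 without Sham 1 to -0.40 without Sham 3. Their sum ran from 736.8 to 893.8 CPM in Sham and from 737.2 to 958.4 in OVX, but it is mostly Ly6d (449.0 to 671.2 CPM) and Zeb2 (167.7 to 240.9 CPM), the 2 genes that were not lower in OVX. Runx2 was the 1 gene of the list below an unadjusted p-value of 0.05, at 2.99, 7.57 and 12.9 CPM in Sham 1, 2 and 3 and 4.8, 1.16 and 1.72 CPM in OVX 1, 2 and 3 (log2 fold change -1.62). Cd4, Ly6d and Runx2 are named after their values were seen. All 12 neutrophil genes were lower in OVX (from -1.69 for Prtn3 to -1.17 for S100a8), with sums of 2512 to 9276 CPM in Sham and 1114 to 4023 in OVX, and Sham 3, not Sham 2, was highest. The median log2 fold change of the neutrophil list was -1.26, and -0.51 without Sham 3. The 12 monocyte and macrophage genes were also all lower (from -1.68 for Ccr2 to -0.13 for Adgre1), with sums of 1458 to 2764 CPM in Sham and 901 to 2077 in OVX. The median of that list was -0.36, and 0.16 without Sham 2. The part of these cells in the levels of Jchain and Prdm1 was not tested.

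Sdc1, Irf4 and Pou2af1 are also transcribed in B cell precursors, whose marker genes did not share 1 order. Of 10 such genes 8 were higher in OVX. Their median log2 fold change was 0.23 (0.46 without Sham 1 and 0.08 without Sham 3), the range ran from -0.21 for Kit to 0.52 for Rag2, and none was called. Their summed level was 2788, 1506 and 1793 CPM in Sham 1, 2 and 3 and 2200, 2802 and 2956 CPM in OVX 1, 2 and 3. The sum was lowest in Sham 2, as were Sdc1, Irf4 and Pou2af1, but by gene 6 of the 10 were lowest in Sham 3 and 4 in Sham 2. Rag1 gave 580.1 CPM of the sum in Sham 2 and 974.2 CPM in Sham 3, and the order of these libraries in the sum rests on it. Rag1 is named after its values were seen. Sdc1 is also a gene of epithelium and stroma. Among 6 epithelial genes 2 were at 0 in every library and 3 were tested, from -1.52 for Cdh1 to -0.58 for Krt18, with a summed level of at most 5.63 CPM. The 10 stromal genes summed to between 19.6 and 69.6 CPM, with 7 of the 8 tested higher in OVX, from -0.24 for Col1a1 to 0.84 for Cxcl12, and OVX 3, where Sdc1 was lowest within OVX, highest. The median of the stromal list was 0.52, and -0.01 without OVX 3. The part of precursors, stroma or epithelium in the level of Sdc1 was not tested.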

How the data were processed

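Samples were grouped by their labels into 3 Sham and 3 OVX RNA-seq libraries of marrow B cells. As deposited, the table holds raw counts by Ensembl identifier, which the authors did not normalize. The submitters' processing notes name CASAVA, Bowtie 0.12.2 and mm10, and the counting tool and annotation are not given in the sources used here. Strand use in counting is not stated, so overlapping genes could share reads. ChIP-seq samples of the series (2 in number) were not analysed here. Symbols were matched to 54409 of 54532 identifiers.

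The 15305 genes kept by filterByExpr were fitted with edgeR 4.0.16 in R 4.3.3, using TMM factors, a quasi-likelihood test with no block and the Benjamini-Hochberg adjustment. The SE is the log2 fold change divided by the square root of F. Permutation was of log2 CPM with 0.5 added to each count. Alternatives were DESeq2 1.42.0, limma-voom (limma 3.58.1), other scalings and filters, no fold threshold, a replicate block and each library left out. Every pair of libraries differed by more than sampling noise (chi-square per degree of freedom of at least 9.29, the value of Sham 1 and OVX 2). Depth was 23838775 to 33136701 reads per library.

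The members and lists were chosen with earlier results of these data known. By rule, the text names the 8 members, any called gene of a list, the highest and lowest gene of each other list, all general B cell and antibody constant genes tested (1 general B cell gene is not reported here), and the 3 genes nearest to each member. Promoters were matched by symbol to RefSeq.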

Additional observations from a re-analysis of the deposited data

How the results depend on the processing

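No member was called under any of the 15 alternatives. The lowest edgeR adjusted p-value of any gene was 0.273, obtained by leaving out Sham 1. Of 120 log2 fold changes of members, 2 changed sign, both of Mzb1. Its value of 0.06 became -0.003 with scaling on general B cell genes, which moved the median of all genes from -0.0081 to -0.0672, and with 1 library left out it ran from -0.058 (Sham 3) to 0.187 (Sham 1). The cause was not tested. The median of the 8 members ran from -0.098 to -0.013 with 1 library left out and was -0.129 with scaling on general B cell genes. Below an unadjusted p-value of 0.05 were 4 members without Sham 1 (Jchain, Prdm1, Sdc1 and Xbp1), 1 without OVX 1 (Jchain) and 0 without any other library. Over all genes that threshold gave 225 higher and 349 lower in OVX, 1254 and 1444 without Sham 1, 113 and 120 without OVX 2, and 364 and 905 with no filter on low counts.

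Same-numbered libraries did not deviate together (correlations -0.39, -0.173 and -0.258 over genes, which are no replicates). With 3 libraries per group this cannot decide whether the numbers pair animals or batches, and the sources used here do not say. With the replicate block 0 genes were called, 74 were higher and 132 lower at an unadjusted p-value under 0.05, and the median of the members was -0.059. Fkbp11 had 22 to 88 reads per library and an SE of 0.51, and Jchain had 2354 to 18185 reads and an SE of 0.68, so more reads did not go with a smaller error for this pair.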
